A study of Mus musculus with 6 samples.

Results

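Wnt signalling was followed here through 60 genes in the mouse skull vault, chosen by name: every gene of the Wnt, Frizzled, Sfrp, Dkk, R-spondin, Lgr, Lrp5/6 and Axin families, with Frzb, Lef1, Tcf7, Tcf7l1, Tcf7l2, Rnf43, Znrf3, Nkd1, Nkd2, Notum, Ctnnb1 and Apcdd1. They are 60 of the 23358 genes in the deposited count table. The study sequenced RNA from calvaria, the flat bones of the skull, of mice 2 to 3 days old. There were 3 libraries from wild type mice, labelled Ezh2_WT_Osx and called WT, and 3 from mice with a conditional knockout of the histone methyltransferase gene Ezh2, labelled Ezh2_cKO-Osx and called cKO. All the bones were first digested for 20 minutes in collagenase type II (2 mg/ml) and trypsin (0.005%). Osx (osterix, today Sp7) is a factor that osteoblast precursors need to mature, and its name stands in the labels of both groups. The labels do not say whether WT mice carry a Cre transgene, which part of Ezh2 is deleted, or whether each library came from its own animal, so the p-values reflect how far these libraries vary, which may be technical. Libraries are named by their group and the number in their title, WT 14, WT 27 and WT 29 and cKO 8, cKO 10 and cKO 37.

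Wnt proteins are lipid-modified secreted ligands. They bind a Frizzled receptor and the co-receptor Lrp5 or Lrp6, which stops a cytoplasmic complex built on Axin from destroying beta-catenin; beta-catenin then joins Tcf and Lef factors on DNA and switches on target genes. Several of those targets, Axin2, Nkd1, Notum, Rnf43 and Znrf3 among them, damp the pathway in turn and are read as its feedback genes. In bone the pathway is known for favouring osteoblast formation, and secreted antagonists of the Sfrp and Dkk families and sclerostin limit it.

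Of the 60 genes, 53 had enough counts to be tested, and 7 of these rose and 1 fell in cKO. The 7 were the ligands Wnt2b and Wnt5b, the receptor Fzd3, the antagonist Sfrp4, the feedback genes Rnf43 and Axin2, and the transcription factor Lef1. The gene that fell was the co-receptor Lrp5. The test was edgeR's quasi-likelihood test with Benjamini-Hochberg adjustment over all 16089 genes tested, and a gene counts as changed at an adjusted p under 0.05. Of all genes tested, 12.4% changed, 5.96% higher and 6.45% lower, beside 15.1% of the Wnt genes, so the share that changed was close to the background. The balance was 7 higher to 1 lower among the Wnt genes. Their median log2 fold change, always cKO over WT, was -0.0013, beside 0.0074 over all genes tested. At an unadjusted p under 0.05 there were 14 of the 53 (26.4%), beside 29.1% of all genes tested. The 3 cKO libraries lay apart from all 3 WT libraries in 13 of the 53 genes (10 higher and 3 lower, 24.5%), and over the whole table in 34.6% of tested genes (17.2% higher and 17.4% lower). Upper-quartile scaling shifted the balance over all genes tested, from 959 higher and 1038 lower to 1191 and 764, and gave 8 higher and 1 lower among the Wnt genes. Leaving out 1 library at a time gave 2 to 6 genes higher and 0 or 1 lower, not always the same genes. Without WT 14, Wnt5b, Fzd3, Sfrp4 and Lrp5 missed the threshold, while Sfrp2 and Fzd6 passed as higher and Tcf7l1 as lower. Without cKO 10, Wnt5b, Sfrp4 and Lrp5 missed it and Wnt16 passed as higher. The number higher fell to 4 without WT 27, 2 without WT 29 and 3 without cKO 8.

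**Figure D1:**
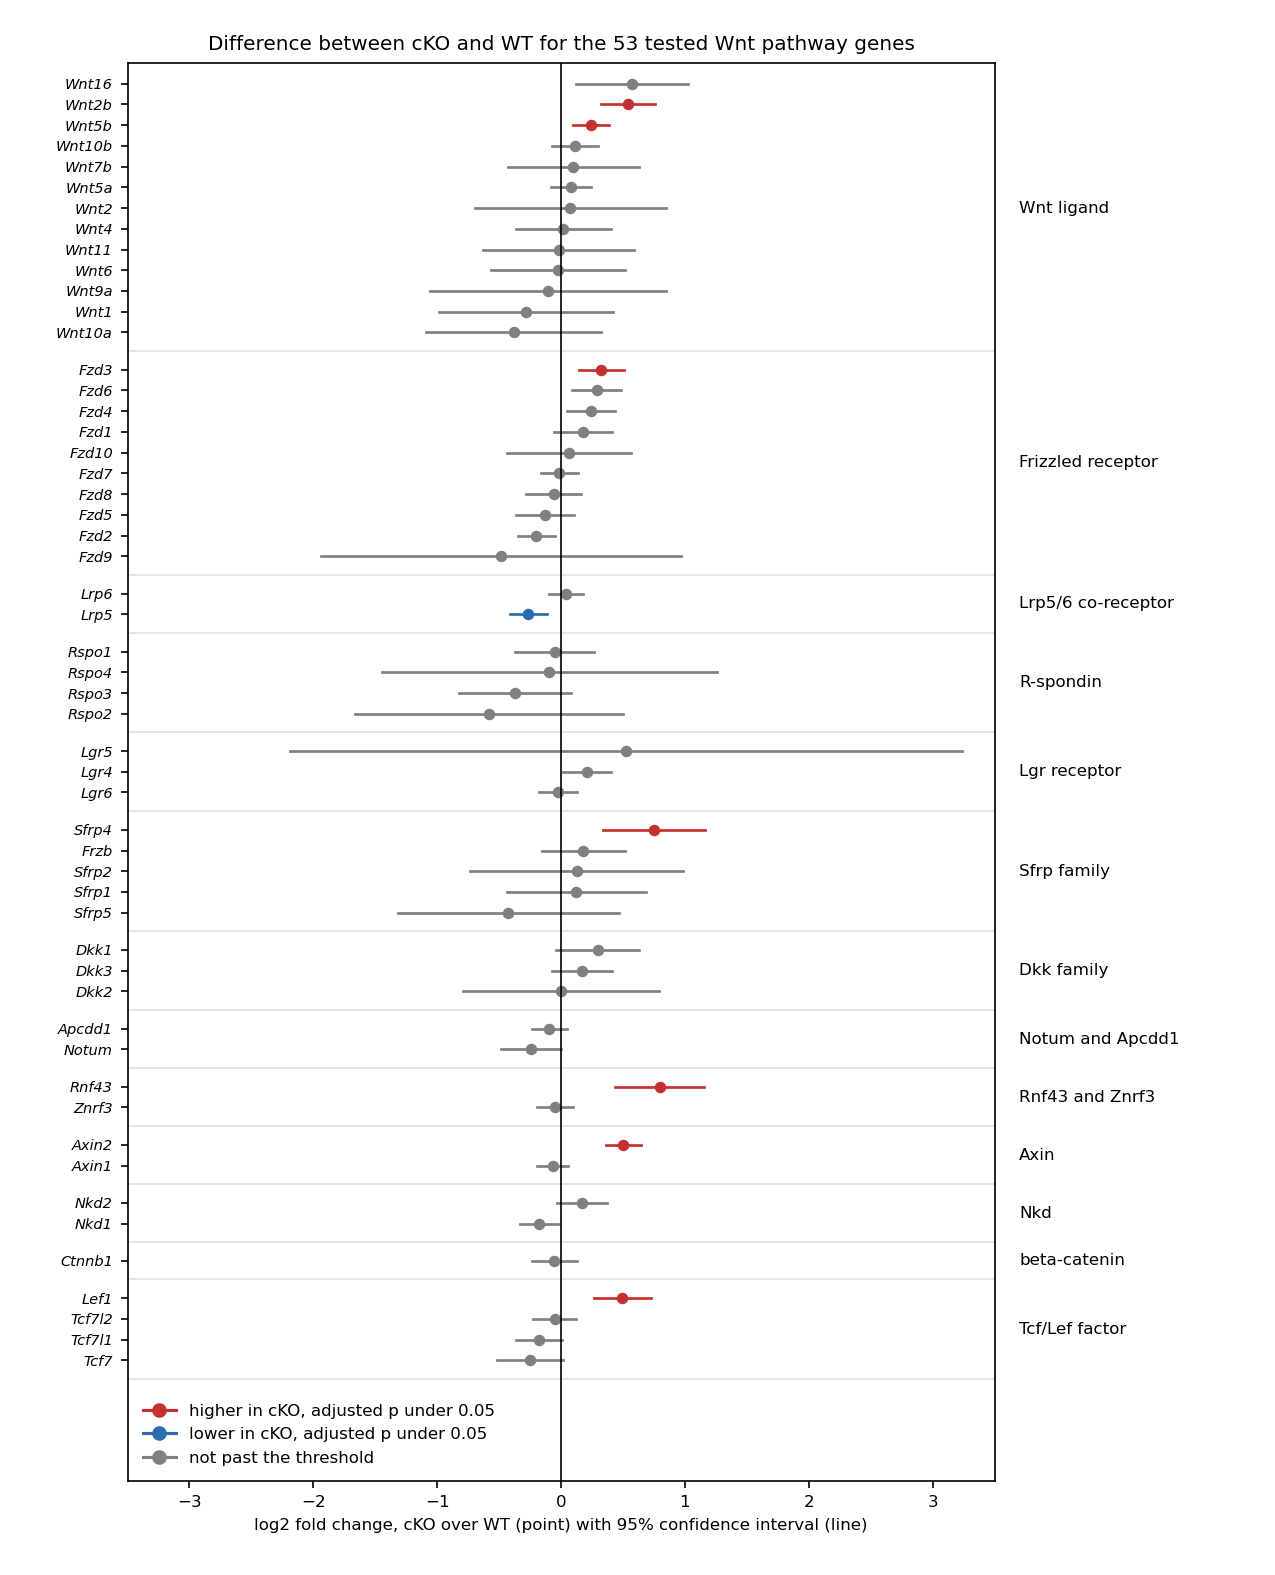
Log2 fold change (cKO over WT, x axis) of each of the 53 tested Wnt genes, grouped by role, with its 95% confidence interval; red and blue mark genes past the threshold. The 7 red intervals lie above 0 and the blue one, Lrp5, below it, while Lgr5 has the widest interval, from -2.19 to 3.23.

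The targeted gene gives no check of the labels. Levels of Ezh2 in CPM (counts divided by a TMM-corrected library size) were 20.7, 21.7 and 20.4 in WT and 19.2, 20.6 and 19.8 in cKO, a log2 fold change of -0.07 ± 0.07 (SE, adjusted p = 0.507). Every direction here therefore rests on the labels. Gene counts totalled 60449016 to 95439578 per library. All 12 osteoblast markers had counts and 1, Sp7, fell; their sum was 144200 to 194000 CPM in WT and 110700 to 148200 in cKO. Of 15 immediate-early and stress genes 14 fell, with a summed level of 4833 to 5511 CPM in WT and 2566 to 3342 in cKO, and 2 of 8 macrophage and osteoclast markers fell (1995 to 2887 against 1509 to 1972). The part of any of these in the Wnt gene results was not tested. The 8 epidermal markers, which cells of skin would bring, summed to 3.97 to 6.61 CPM over all libraries, with Krt14 at 0 to 0.182. The 8 brain markers summed to 15.2 to 19.9 CPM, with Olig2 at 0. In whole bone, fewer cells of a type and less RNA per cell cannot be told apart.

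The gene starts of 4 of the genes that rose are shown. Of these, 3, Axin2, Rnf43 and Lef1, are reported targets of beta-catenin. The fourth, Wnt5b, was the only changed gene with the Tcf/Lef motif CTTTGAT or CTTTGAA in a matched promoter. Other forms of the motif were not searched. Fzd3, Lrp5 and Sfrp4, which also changed, had no matched promoter to search. Lef1 has 4 RefSeq starts, Wnt5b 3 and Rnf43 2, of which 1 each is shown. Each is 250 bases before to 50 bases after a RefSeq transcript start (GRCm38.p6, the build of mm10), 5′ to 3′ on the gene's strand, with capitals on the motif CTTTGAT or CTTTGAA, searched on both strands.
Axin2, chr11:108920099-108920398, plus strand: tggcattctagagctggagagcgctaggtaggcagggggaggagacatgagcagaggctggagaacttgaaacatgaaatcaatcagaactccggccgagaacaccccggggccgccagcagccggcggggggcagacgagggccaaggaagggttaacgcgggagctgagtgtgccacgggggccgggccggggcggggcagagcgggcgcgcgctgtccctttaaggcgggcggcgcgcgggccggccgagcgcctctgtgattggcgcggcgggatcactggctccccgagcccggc
Rnf43, chr11:87662837-87663136, plus strand: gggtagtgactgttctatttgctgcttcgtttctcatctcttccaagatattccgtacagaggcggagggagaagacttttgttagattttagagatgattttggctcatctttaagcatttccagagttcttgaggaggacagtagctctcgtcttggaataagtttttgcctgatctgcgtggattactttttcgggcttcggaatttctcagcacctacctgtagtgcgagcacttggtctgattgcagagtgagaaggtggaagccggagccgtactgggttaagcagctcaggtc
Lef1, chr3:131110047-131110346, plus strand: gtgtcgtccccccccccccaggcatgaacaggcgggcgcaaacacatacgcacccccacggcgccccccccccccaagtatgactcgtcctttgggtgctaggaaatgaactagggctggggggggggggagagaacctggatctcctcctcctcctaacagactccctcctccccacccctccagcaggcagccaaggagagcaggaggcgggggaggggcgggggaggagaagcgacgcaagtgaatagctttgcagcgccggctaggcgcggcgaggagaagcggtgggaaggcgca
Wnt5b, chr6:119449337-119449636, minus strand: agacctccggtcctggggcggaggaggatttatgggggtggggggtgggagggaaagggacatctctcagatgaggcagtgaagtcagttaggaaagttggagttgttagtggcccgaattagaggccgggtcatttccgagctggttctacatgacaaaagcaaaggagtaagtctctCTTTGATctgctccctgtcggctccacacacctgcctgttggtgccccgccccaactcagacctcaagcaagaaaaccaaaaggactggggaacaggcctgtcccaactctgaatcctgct
The Axin2 and Lef1 windows shown are rich in G and C (70% and 67.3%, with 31 and 18 CpG dinucleotides). The Rnf43 and Wnt5b windows shown are less so (46.7% and 55%, with 10 and 7). In the Wnt5b window shown, the letters CTTTGAT begin 71 bases before its start, which lies inside the gene. The Wnt5b windows not shown hold neither motif, with 53% and 78% G and C and 4 and 47 CpG dinucleotides. The 78% window covers the 5′ end of the deposited gene. The Lef1 windows not shown have 43.7% to 67.3% G and C and that of Rnf43 44.3%. RefSeq gave promoters for 39 of the 60 genes, 49 windows in all, of which 3 (6.12%) hold either motif, beside 8.65% of all 32851 windows of that length. The other 2 are at Dkk1 (117 bases before the start) and Wnt11 (51 bases before). A match is a run of letters and not a shown binding site, and sites outside these 300 bases were not searched.

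Among the 19 Wnt ligands, levels differed far more between genes than between groups. On the deposited RPKM scale, which allows for gene length, Wnt10b was the most abundant at 14.8 to 18.2 over the 6 libraries. Wnt9a (7.51 to 15.2), Wnt5b (9.39 to 12.3) and Wnt5a (5.89 to 7.73) followed; the ranges of Wnt9a and Wnt5b overlap and their order is not resolved. Wnt2b, Wnt11, Wnt7b, Wnt2 and Wnt16 lay between 0.751 and 4.04 RPKM, and Wnt1, Wnt4, Wnt10a and Wnt6 between 0.285 and 1.04. From Wnt11 down to Wnt6 each range overlaps that of the next gene. The last 6, Wnt8a, Wnt3, Wnt8b, Wnt9b, Wnt7a and Wnt3a, had 0 to 8 counts per library and were left out by the filter on low counts; 3 counted units, which allow for a count of 0, equal 0.0652 to 0.1 CPM at these depths. Wnt3a, much used as a canonical ligand in culture, had counts in only 1 library, cKO 8, where 1 counted unit gave 2 counts.

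**Figure D2:**
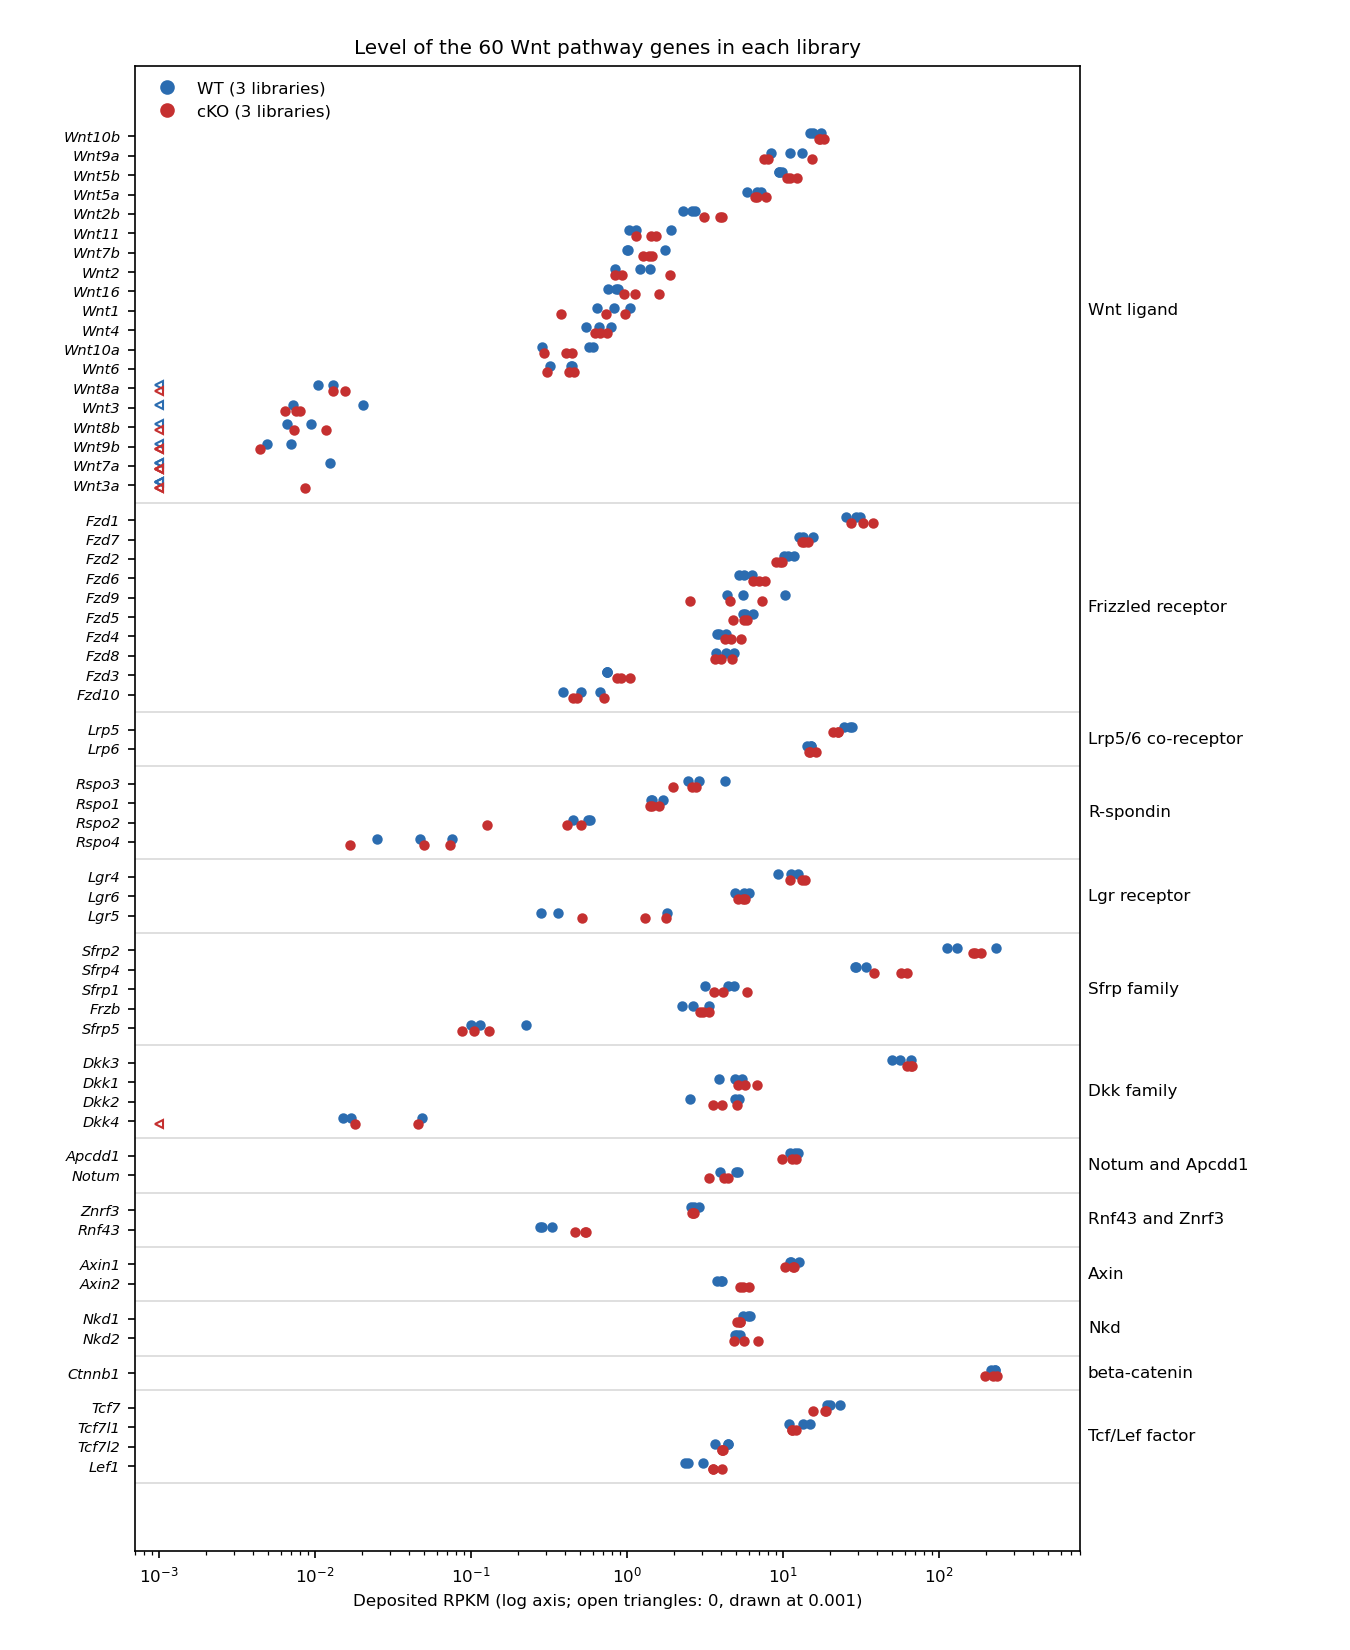
Deposited RPKM (log x axis) of all 60 genes in each of the 6 libraries, blue WT and red cKO, grouped by role and ordered by mean level; open triangles are values of 0 drawn at 0.001. Ctnnb1 and Sfrp2 lie above 100 in every library, and 6 Wnt ligands and Dkk4 lie under 0.05.

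The position of the ligand genes cuts across these levels. In the GENCODE M21 annotation of GRCm38, 8 of the 19 lie in neighbouring pairs: Wnt10b and Wnt1 (chromosome 15, 11.7 kb apart), Wnt6 and Wnt10a (chromosome 1, 6.19 kb), Wnt3a and Wnt9a (chromosome 11, 16.2 kb) and Wnt9b and Wnt3 (chromosome 11, 24.3 kb). Wnt10b stood at 14.8 to 18.2 RPKM and its neighbour Wnt1 at 0.379 to 1.04. Wnt9a stood at 7.51 to 15.2 and its neighbour Wnt3a at 0 to 0.0086. In the other 2 pairs the ranges overlap, Wnt6 and Wnt10a between 0.285 and 0.604 and Wnt9b and Wnt3 at 0 to 0.0203. None of the other 5 genes in these pairs changed in cKO; Wnt3, Wnt3a and Wnt9b were left out by that filter.

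Wnt2b and Wnt5b rose and the other 11 tested ligands did not pass. Wnt2b (chromosome 3, 104944805 to 104961709), a ligand able to act through beta-catenin, measured 13.4, 11.9 and 11.2 CPM in WT and 15.6, 18.8 and 18.5 in cKO. The groups do not overlap, and the mean went from 12.1 ± 1.14 to 17.6 ± 1.77 CPM (SD, n = 3 each; 1.45-fold, log2 0.54 ± 0.10, adjusted p = 0.00808). Its call held without any single library. Wnt5b (chromosome 6, 119432531 to 119544347), a ligand best known for signalling apart from beta-catenin, measured 30.8, 29.8 and 30.6 in WT and 37.1, 37.8 and 32.9 in cKO. The WT libraries lie close together and all 3 cKO libraries above them, a 1.18-fold difference (log2 0.24 ± 0.07, adjusted p = 0.0392). Omitting any one library other than cKO 37 ended that call (0.088 to 0.143). Its close relative Wnt5a measured 35.6, 40.1 and 40.8 in WT and 40.5, 38.8 and 44.2 in cKO (log2 0.08 ± 0.07, adjusted p = 0.498), and the groups overlap.

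Other ligands with a place in bone did not pass. Wnt10b, which favours bone formation over fat, measured 54.1, 42.3 and 47.7 CPM in WT and 53.1, 52.6 and 50.2 in cKO (log2 0.11 ± 0.08, adjusted p = 0.404). Wnt16, a ligand known for cortical bone, measured 2.02, 1.80 and 1.72 in WT and 2.64, 2.06 and 3.51 in cKO. The cKO libraries lie above WT, but cKO 10 by only a small margin, and the difference did not pass (log2 0.57 ± 0.21, adjusted p = 0.0916), although it did without cKO 10 (0.0472). Wnt1, a ligand whose loss causes bone fragility, measured 3.42, 2.52 and 2.09 in WT and 1.27, 2.26 and 3.02 in cKO (log2 -0.28 ± 0.31, adjusted p = 0.59). The other 7 tested ligands had log2 fold changes from -0.38 (Wnt10a) to 0.10 (Wnt7b).

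All 10 Frizzled receptors were detected and tested, and 1 rose. Fzd1 was the most abundant at 25.4 to 37.9 RPKM, 33.2% to 44.7% of the summed RPKM of the family. Fzd7 (12.6 to 15.5) and Fzd2 (9.03 to 11.8) came next, and their ranges do not overlap each other. Fzd6, Fzd9, Fzd5, Fzd4 and Fzd8 lay between 2.52 and 10.4, Fzd3 at 0.745 to 1.04 and Fzd10 at 0.387 to 0.714. The receptor that rose was thus 1 of the 2 scarcest of the family. Fzd3 (chromosome 14, 65192441 to 65262463), known for its part in planar polarity and axon guidance, measured 13.2, 12.2 and 13.1 CPM in WT and 15.6, 15.2 and 17.3 in cKO. The groups do not overlap (1.25-fold, log2 0.33 ± 0.08, adjusted p = 0.0297). The call ended on omission of any one library other than cKO 10 (0.0602 to 0.0936), and also when gene length entered the fit (log2 0.28, adjusted p = 0.0589) or gene length with GC content (log2 0.21, adjusted p = 0.128).

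Of the receptors that did not pass, Fzd6, which acts beside Fzd3 in polarity, measured 36.0, 27.8 and 31.9 CPM in WT and 37.7, 37.4 and 41.6 in cKO (log2 0.29 ± 0.09, adjusted p = 0.0605). All 3 cKO libraries lie above WT, and it passed without WT 14 (adjusted p = 0.0296), with upper-quartile scaling (0.0432) and with DESeq2 (0.0378). Fzd4, the norrin receptor of blood vessels, was also higher in each cKO library (19.1, 18.4 and 21.8 against 22.1, 25.8 and 22.3), at 0.24 ± 0.09 (adjusted p = 0.094). Fzd2 was lower in each (53.7, 54.7 and 50.2 against 49.0, 46.3 and 42.8), at -0.20 ± 0.07 (adjusted p = 0.0753). Fzd1 measured 187, 164 and 153 in WT and 168, 185 and 217 in cKO (log2 0.18 ± 0.10, adjusted p = 0.295), and the groups overlap. The other 5 ranged from -0.48 (Fzd9) to 0.06 (Fzd10).

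Of the 2 co-receptors, Lrp5 fell. Lrp5 (chromosome 19, 3584825 to 3686564), whose gain and loss of function raise and lower bone mass, measured 176, 183 and 191 CPM in WT and 164, 152 and 142 in cKO. The groups do not overlap, and the mean went from 183 ± 7.05 to 153 ± 11.2 CPM (log2 -0.26 ± 0.07, adjusted p = 0.0311). Omitting a WT library, or cKO 10, ended the call (0.0514 to 0.119). Lrp6, its widely expressed paralogue, measured 195, 182 and 182 in WT and 195, 181 and 199 in cKO (log2 0.04 ± 0.06, 95% confidence interval -0.10 to 0.18, adjusted p = 0.719). Per length, Lrp5 was the more abundant in all 6 libraries, at 21 to 27.6 RPKM beside 14.1 to 16.3 for Lrp6.

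R-spondins are secreted proteins that protect Frizzled receptors from removal, and Lgr4, Lgr5 and Lgr6 are their receptors. None of the 4 ligands and 3 receptors passed with edgeR or limma voom, nor with DESeq2, which gave Rspo4 no adjusted p. Of the 7, 1, Lgr4, had an unadjusted p under 0.05, beside 29.1% of all genes tested. Rspo3 was the most abundant ligand at 1.98 to 4.23 RPKM and measured 8.15, 13.0 and 9.50 CPM in WT and 8.78, 6.16 and 8.66 in cKO (log2 -0.37 ± 0.20, adjusted p = 0.254). The 4 log2 fold changes ran from -0.58 (Rspo2) to -0.05 (Rspo1). Lgr4 was the most abundant receptor at 9.21 to 13.8 RPKM, and measured 64.5, 81.2 and 77.7 CPM in WT and 79.3, 90.9 and 87.8 in cKO (log2 0.21 ± 0.09, adjusted p = 0.148). In it cKO 8 lies inside the WT range. Lgr6 was nearly level, at 28.2, 28.0 and 24.5 against 26.1, 26.1 and 26.97 CPM (log2 -0.03 ± 0.07, adjusted p = 0.841, 95% confidence interval -0.18 to 0.13).

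The Sfrp proteins and Frzb are secreted decoys that carry a Frizzled-like domain, and 1 of the 5 rose. Sfrp4 (chromosome 13, 19623175 to 19632823), whose loss thins cortical bone, measured 82.4, 65.2 and 71.0 CPM in WT and 94.4, 130 and 143 in cKO. All 3 cKO libraries lie above WT but they are spread among themselves, with cKO 8 nearest to WT. The mean went from 72.9 ± 8.75 to 123 ± 25.3 CPM (1.68-fold, log2 0.75 ± 0.17, adjusted p = 0.0403), and the call ended on omission of any one library other than cKO 8 (0.0557 to 0.12) and when the filter on low counts was dropped (0.0755). Sfrp2 was the most abundant of the family in every library, at 112.5 to 229.9 RPKM beside 28.9 to 62.3 for Sfrp4. It measured 637, 288 and 356 CPM in WT and 523, 443 and 433 in cKO (log2 0.13 ± 0.33, adjusted p = 0.843). WT 14 stood above every other library; without it the difference was 0.53 on the log2 scale (adjusted p = 0.031), and without WT 27 it was -0.10 (0.867). Sfrp1, Frzb and Sfrp5 had log2 fold changes of 0.12, 0.18 and -0.42 and did not pass.

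Dkk proteins bind Lrp5 and Lrp6, apart from the divergent member Dkk3. None of the 3 tested passed with edgeR, DESeq2 or limma voom. An unadjusted p under 0.05 was seen in 0 of 3, beside 29.1% of all genes tested. Dkk3 was the most abundant, at 50.2 to 66.9 RPKM, and measured 309, 241 and 232 CPM in WT and 314, 292 and 274 in cKO (log2 0.17 ± 0.11, adjusted p = 0.334). Dkk1, the classical inhibitor, measured 15.1, 11.2 and 16.7 in WT and 16.3, 19.9 and 16.7 in cKO (log2 0.30 ± 0.15, adjusted p = 0.222). Dkk2 varied within WT (13.0, 24.7 and 25.0), with cKO at 21.1, 17.0 and 24.6. Dkk4 had 20 counts over all libraries and was left out by the filter on low counts. Notum, an enzyme that strips the lipid from Wnt proteins, measured 11.02, 13.3 and 13.9 CPM in WT and 9.58, 11.6 and 11.1 in cKO (log2 -0.24 ± 0.11, adjusted p = 0.177). Apcdd1, a membrane inhibitor, measured 45.9, 44.4 and 42.7 in WT and 39.0, 41.5 and 43.9 in cKO (log2 -0.10 ± 0.06, adjusted p = 0.365). In both, WT and cKO overlap.

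Among the intracellular and membrane feedback genes, 1 member of each of the 2 paralogous pairs Axin1/Axin2 and Rnf43/Znrf3 rose. Axin2 (chromosome 11, 108920349 to 108950781), an inducible scaffold of the destruction complex and a standard readout of beta-catenin activity, measured 23.5, 22.1 and 22.2 CPM in WT and 31.8, 33.5 and 30.7 in cKO. The libraries of each group lie close together and the groups are well apart. The difference was 1.42-fold (log2 0.50 ± 0.06, adjusted p = 0.00166), and it passed in each of the 17 alternatives, with values from 0.46 to 0.56. Axin2 also marks mesenchyme of the sutures between the skull bones. Of 9 markers of suture and periosteum, Axin2 alone passed the threshold. The sum of the 9 was 4215 to 4977 CPM in WT and 4526 to 5132 in cKO. These ranges overlap, but Axin2 is a small part of the sum. Of the 9 markers, 7 had a log2 fold change above 0, beside 8247 of all 16089 genes tested. The part of suture cells in the Axin2 result was not tested. Axin1, the constitutive scaffold, measured 59.2, 61.2 and 57.5 in WT and 54.8, 57.0 and 58.0 in cKO (log2 -0.07 ± 0.06, 95% confidence interval -0.19 to 0.06, adjusted p = 0.483). Rnf43 (chromosome 11, 87663087 to 87735539), a ubiquitin ligase that removes Frizzled receptors from the cell surface, measured 1.70, 1.83 and 1.63 in WT and 3.27, 2.61 and 3.07 in cKO. It is scarce but the groups are apart, with means of 1.72 ± 0.103 and 2.98 ± 0.338 CPM (1.74-fold, log2 0.80 ± 0.16, adjusted p = 0.0128). Rnf43 was lost without WT 29 (0.0547) or cKO 8 (0.0609). Znrf3, its paralogue, measured 22.5, 23.2 and 23.2 in WT and 23.4, 22.0 and 21.4 in cKO (log2 -0.05 ± 0.07, adjusted p = 0.672).

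The naked cuticle genes Nkd1 and Nkd2, which act on dishevelled, did not pass with edgeR, DESeq2 or limma voom. An unadjusted p under 0.05 was seen in 1 of the 2, beside 29.1% of all genes tested. Nkd1 measured 37.6, 33.8 and 33.7 CPM in WT and 33.2, 30.7 and 29.3 in cKO (log2 -0.17 ± 0.07, adjusted p = 0.13). All 3 cKO libraries lie below WT, by a small margin for cKO 8. Nkd2 measured 22.0, 21.9 and 22.5 in WT and 22.1, 23.5 and 28.9 in cKO (log2 0.17 ± 0.09, adjusted p = 0.256), with cKO 37 highest. The feedback genes named in the background paragraph thus did not move as 1 group: Axin2 and Rnf43 rose, and values for Nkd1, Notum and Znrf3 were below 0 without passing.

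**Figure D3:**
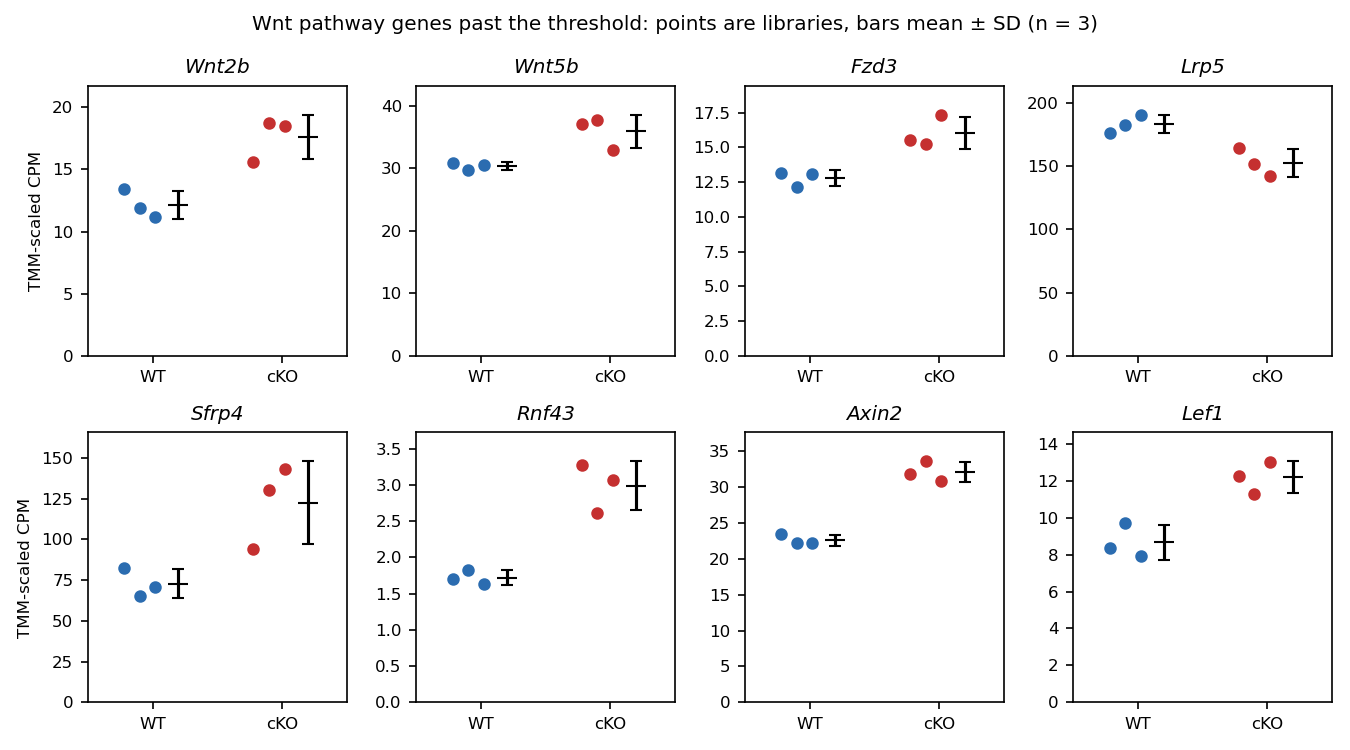
TMM-scaled CPM (y axis, from 0) of the 8 Wnt genes past the threshold in each library (points, blue WT and red cKO), and beside them each group's mean ± SD (n = 3). In each panel the cKO points lie apart from the WT points, and Sfrp4 has the widest spread within cKO, from 94.4 to 143.

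At the nuclear end of the pathway, Lef1 rose and beta-catenin and the 3 Tcf genes did not pass. Ctnnb1, which encodes beta-catenin, was the most abundant of the 60 genes by mean RPKM, at 195.8 to 234. In WT 14 Sfrp2 stood above it (229.9 against 214.7 RPKM). Ctnnb1 measured 1076, 1054 and 1133 CPM in WT and 1001, 1038 and 1108 in cKO (log2 -0.05 ± 0.08, adjusted p = 0.721). These are RNA counts, and the pathway acts on the stability of the protein. Lef1 (chromosome 3, 131110471 to 131223331), a factor that is itself reported as a beta-catenin target, measured 8.37, 9.71 and 7.92 CPM in WT and 12.3, 11.3 and 13.0 in cKO. The groups do not overlap, with means of 8.66 ± 0.931 and 12.2 ± 0.862 CPM (1.41-fold, log2 0.49 ± 0.10, adjusted p = 0.0145). Lef1 was lost without WT 29 (0.0646) or cKO 8 (0.0594). Tcf7, the most abundant of the 4 factors at 15.5 to 23.1 RPKM, measured 61.7, 54.6 and 71.1 in WT and 58.2, 54.6 and 45.4 in cKO (log2 -0.25 ± 0.12, adjusted p = 0.205). Tcf7l1, mostly a repressor, measured 42.2, 53.2 and 51.3 in WT and 44.9, 43.6 and 41.6 in cKO (log2 -0.17 ± 0.08, adjusted p = 0.201); it passed, lower, without WT 14 (-0.27, adjusted p = 0.0454). Tcf7l2 measured 23.2, 26.0 and 27.8 in WT and 26.3, 23.9 and 24.2 in cKO (log2 -0.05 ± 0.08, adjusted p = 0.717).

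Ratios between related genes within a library do not depend on how libraries are scaled. The 7 ratios given were chosen after the values had been seen, so they are described and not tested. Axin2 over Axin1, from the RPKM values, was 0.352, 0.321 and 0.342 in WT and 0.515, 0.522 and 0.470 in cKO. Rnf43 over Znrf3 was 0.110, 0.115 and 0.103 in WT and 0.205, 0.174 and 0.209 in cKO. Lef1 over Tcf7 was 0.124, 0.162 and 0.101 in WT and 0.192, 0.188 and 0.261 in cKO. In these 3 ratios every cKO library lies above every WT library. Lrp5 over Lrp6 was 1.64, 1.82 and 1.90 in WT and 1.53, 1.52 and 1.29 in cKO, so every cKO library lies below. Wnt5b over Wnt5a, Sfrp4 over Sfrp2 and Fzd3 over Fzd6 overlapped between groups; the last was 0.131 ± 0.0119 in WT and 0.134 ± 0.0017 in cKO (mean ± SD, n = 3).

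**Figure D4:**
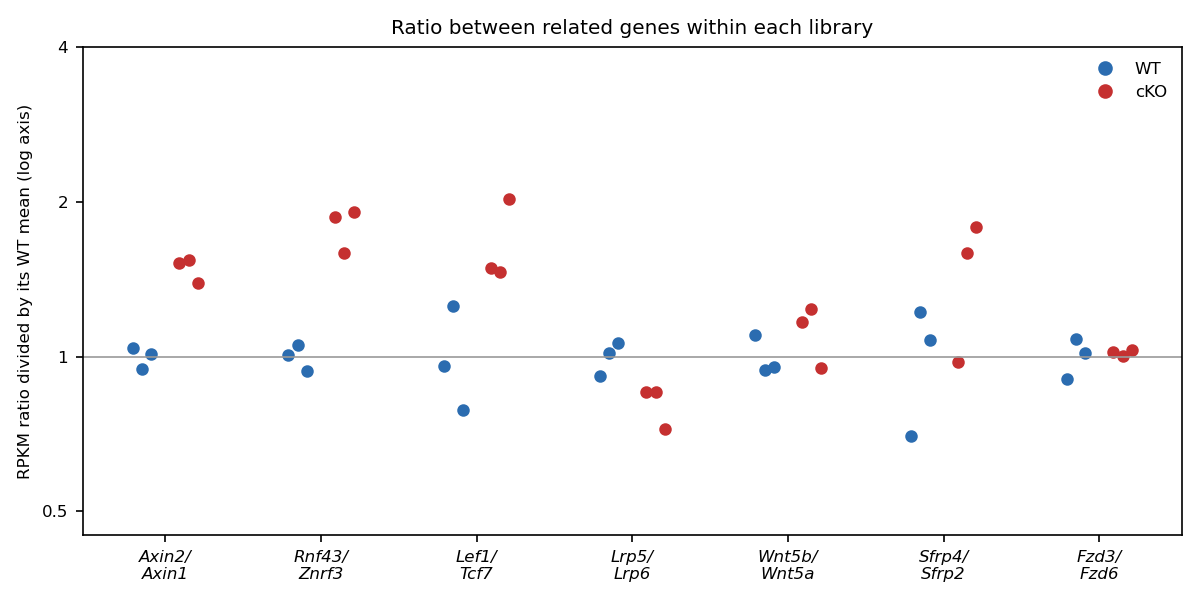
Ratio of the RPKM values of 7 pairs of related genes in each library, divided by the mean of the 3 WT libraries (log y axis; blue WT, red cKO). The cKO points of Axin2/Axin1, Rnf43/Znrf3 and Lef1/Tcf7 lie above all WT points, those of Lrp5/Lrp6 lie below, and the other 3 pairs overlap.

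Some of the genes differed more between libraries of 1 group than any of the 53 did between the group means. In 10 of the 53 tested genes (18.9%, beside 11.1% of all genes tested) the highest library of a group was over 2 times the lowest. Lgr5, a marker of stem and progenitor cells in several tissues, measured 11.8, 2.18 and 1.81 CPM in WT and 8.61, 10.8 and 3.17 in cKO, 6.51-fold from lowest to highest within WT. WT 14, cKO 8 and cKO 10 were high and the other 3 libraries low, so the pattern does not follow the groups (log2 0.52 ± 0.99, adjusted p = 0.783). The fitted difference rested on single libraries: it was 1.92 without WT 14, 0.90 without cKO 37, and 0.16, 0.11 and 0.16 without WT 27, WT 29 and cKO 10 in turn, and did not pass in any of these. Fzd9 measured 12.7, 28.0 and 15.9 in WT and 13.5, 20.1 and 6.94 in cKO (log2 -0.48 ± 0.54, adjusted p = 0.619), highest in WT 27 and lowest in cKO 37. Wnt9a, just under that line at 1.92, measured 60.6, 47.3 and 38.1 in WT and 35.2, 34.3 and 66.0 in cKO (log2 -0.11 ± 0.35, adjusted p = 0.878), highest in cKO 37. Rspo2 was 2.08 to 2.57 in WT, and in cKO 2.40, 0.548 and 1.79. The 8 cartilage markers, which include Col2a1 and Acan, varied between the same libraries, with a sum of 2312, 8490 and 5111 CPM in WT and 6089, 6637 and 881 in cKO. Their part in these values was not tested. None of the 8 genes past the threshold was among the 10, but a wide spread within a group also makes a gene less likely to pass.

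**Figure D5:**
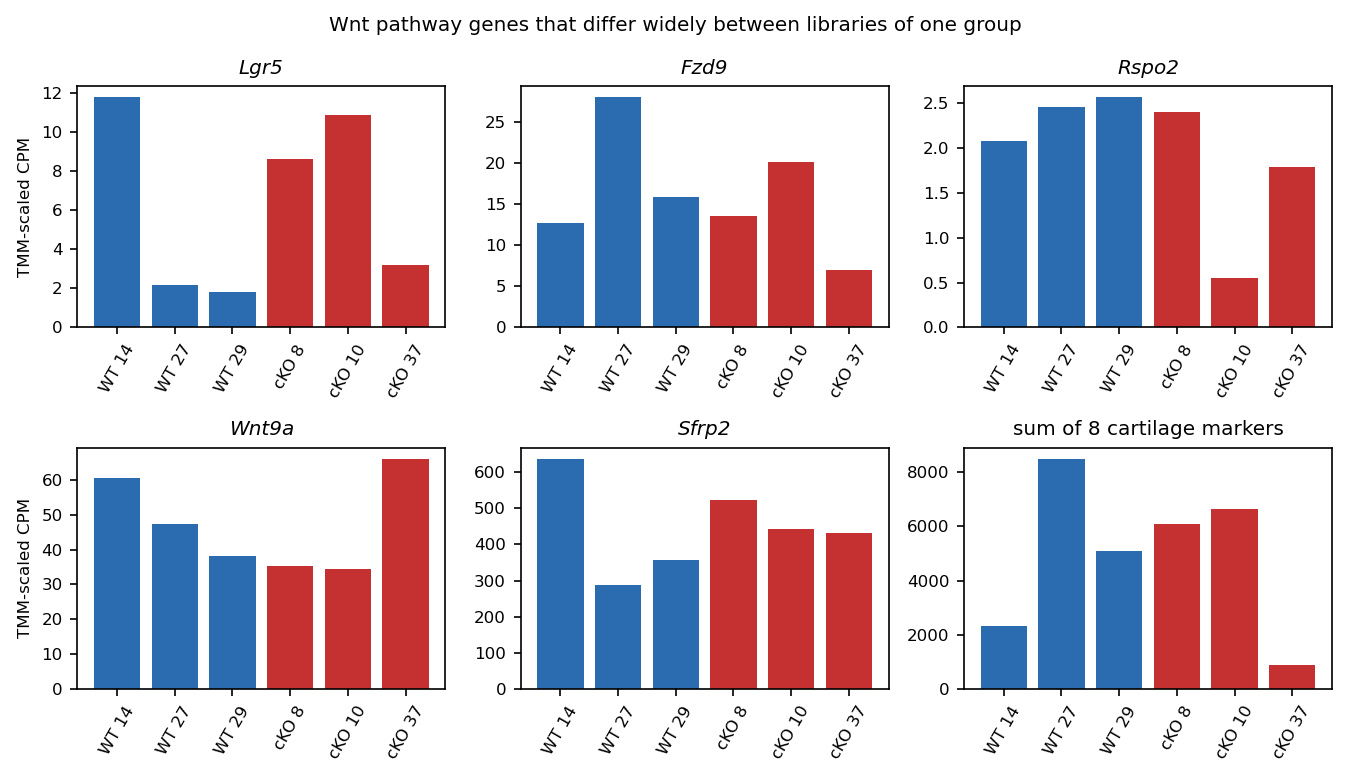
TMM-scaled CPM (bars from 0) of 5 Wnt genes and of the sum of 8 cartilage markers in each of the 6 libraries, blue WT and red cKO. Fzd9 and the cartilage sum are both highest in WT 27 and lowest in cKO 37, whereas Lgr5 is high in WT 14, cKO 8 and cKO 10.

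The counting may mix some genes with others. Whether counting used strand is unknown here, so reads of an antisense gene may or may not have entered these counts. Exons of other annotated genes on the opposite strand cover 38.1% of the exon bases of Notum, 17.8% of those of Fzd5 and 16.1% of those of Sfrp2. They cover 13.7% of those of Lef1 (the antisense gene Gm43352), 13.1% of those of Rspo3 and 3.8% of those of Axin2 (Gm11670). For Ctnnb1 the overlap was 15.1%, with a microRNA gene on the same strand included. Fzd6, Tcf7l1, Wnt5a, Wnt7b and Wnt11 had 3.15% to 8.8%. Of the other 6 genes past the threshold, no exon of another gene overlaps theirs in GENCODE M21.

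Beyond the 60, the rest of the pathway was read through 8 lists of 145 genes. The lists were chosen with earlier results of these data known. Their shares, here and below, are therefore described and not tested. Of the 139 tested, 10 rose and 15 fell (18%, beside 12.4% of all genes tested). Leaving out 1 library at a time gave 5 to 10 higher and 7 to 20 lower. Upper-quartile scaling turned the balance to 13 higher and 12 lower. Of 6 genes of Wnt acylation and secretion, 0 passed with edgeR (2 at an unadjusted p under 0.05, beside 29.1% of all genes tested). The share changed was 18.2% of the further receptors and partners and 15.4% of the genes listed as further antagonists. Of 11 further receptors and partners, Tspan12, a tetraspanin that aids Fzd4, rose by 0.44 ± 0.09 and Ror2, a receptor of Wnt5a, fell by 0.24 ± 0.07 in log2 units (adjusted p = 0.0129 and 0.0456). The call of Ror2 ended on omission of each of the 6 libraries (0.0521 to 0.122), under upper-quartile scaling (0.0713) and under the length and GC offset (0.0644). Of 13 genes listed as further antagonists, Sostdc1, related to sclerostin, rose by 0.49 ± 0.14 (adjusted p = 0.0388). Cpz, a carboxypeptidase that binds Wnt proteins, fell by 0.33 ± 0.08 (adjusted p = 0.0298). Whether Cpz limits or favours the pathway was not tested. Sostdc1 missed the threshold on omission of any one library other than WT 14 (0.0743 to 0.138) and under the length and GC offset (0.0501), and Cpz on omission of WT 14, WT 29, cKO 10 or cKO 37 (0.0723 to 0.12; under that offset 0.202). Sost, which encodes sclerostin, and Wif1, another secreted inhibitor, were added after their values were seen; their log2 fold changes were -0.10 ± 0.11 and 0.09 ± 0.09 (adjusted p = 0.596 and 0.513).

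The remaining lists are of the cytoplasm, the nucleus and targets. The share changed was 14.3% of the glypicans and sulfatases and 7.41% of the dishevelled and destruction complex list. Of 7 tested glypicans and sulfatases Gpc2 fell by 0.42 ± 0.09, a call lost without WT 27 (adjusted p = 0.0518) or cKO 8 (0.0558). Of 27 genes of dishevelled and the destruction complex, Fam123b, now called Amer1, rose by 0.30 ± 0.06 and Dvl1, 1 of the 3 dishevelled genes, fell by 0.23 ± 0.06; Fam123b was lost without WT 29 (0.0587) or cKO 8 (0.0588), and Dvl1 on omission of any one library other than cKO 37 (0.0629 to 0.148), under upper-quartile scaling (0.0622) and under the length and GC offset (0.225). Of 23 beta-catenin cofactors and corepressors, 0 rose and 4 fell (17.4% changed, beside 12.4% of all genes tested, of which 6.45% fell). Their median log2 fold change was -0.15, and 13 had an unadjusted p under 0.05 (56.5%, beside 29.1% of all genes tested). The fourth, Ctbp1, was at -0.21 ± 0.06 (adjusted p = 0.0378). The others were Ctbp2, a corepressor, at -0.31 ± 0.07, Tle4, a Groucho corepressor of Tcf factors, at -0.28 ± 0.07, and Jup, plakoglobin, at -0.31 ± 0.08 (adjusted p = 0.0173, 0.0297 and 0.0335). Ctbp2 was lost without WT 14, WT 29 or cKO 8 (0.055 to 0.0779), Tle4 without WT 27, WT 29 or either of cKO 8 and cKO 10 (0.0766 to 0.101), and Jup without WT 27, WT 29, cKO 8 or cKO 37 (0.0725 to 0.125).

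Planar polarity and other signalling apart from beta-catenin had 3 of 27 genes higher and 4 lower (25.9% changed, beside 12.4% of all genes tested). Invs, inversin of the cilium, fell by 0.60 ± 0.08 and the polarity scaffold Scrib by 0.35 ± 0.06, while Intu, a ciliary polarity effector, rose by 0.50 ± 0.07 in log2 units (adjusted p = 0.00166, 0.00614 and 0.00318). Of 25 tested genes reported as beta-catenin targets, 4 rose and 3 fell (28% changed, beside the same 12.4%). Fst, follistatin, rose by 0.69 ± 0.10, while Cyr61, a matricellular protein, fell by 0.66 ± 0.10 and Id2, a helix-loop-helix inhibitor, by 0.37 ± 0.06 (adjusted p = 0.0028, 0.00394 and 0.00545). Jun, which also fell, stands in the immediate-early list above, in which 14 of 15 fell. So among reported targets outside the 60 genes there were changes in both directions.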

How the data were processed

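RNA of calvaria from 6 libraries, 3 WT and 3 cKO, was compared. Per the submitters' processing notes, the authors used bcl2fastq, aligned to mm10 with TopHat2 2.0.6 and counted with HTSeq; annotation, parameters and strand setting: not given in the sources used here. The deposited table holds counts, whole numbers per gene, and RPKM values of the authors, which by their values are those counts over gene length and 1 total per library. No count is odd (0 of all values), and 1 counted unit is taken as 2 counts. The RPKM were used for levels between genes and ratios, and the counts for every test.

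The filter filterByExpr of edgeR 4.0.16 (minimum count 10; R 4.3.3) left 16089 of 23358 and 53 of the 60; libraries were scaled by TMM (factors 0.9519 to 1.0722) and tested with the robust quasi-likelihood F test, with Benjamini-Hochberg adjustment over the 16089 genes. The biological coefficient of variation was 11.5%. SE and 95% confidence intervals are of the fitted log2 fold change. The 60 genes, lists and tests were chosen with earlier results of these data known. Genes past the threshold are named, with a fixed set of receptors, feedback genes and factors whatever their p, the most abundant gene of each role, and up to 3 of each pathway list; other names were chosen after their values were seen. Of the pathway and marker genes, 9 were matched under older names after the file was opened. The steps were tested on simulated counts with changes planted in genes of at least 1 CPM. They recovered 5 of 50 genes changed 1.2-fold, 35 of 50 changed 1.5-fold and 46 of 50 changed 2-fold. Of 15889 unchanged genes, 13 were called. A gene that did not pass may therefore still differ by 1.2-fold or 1.5-fold. Alternatives were RLE and upper-quartile scaling, no filter, a mean CPM of at least 1, DESeq2 1.42.0, limma voom (limma 3.58.1), halved counts, glmTreat against a fold of 1.2, removal of stress and erythroid genes, a gene length offset, omission of each library and, added after seeing the data, a length and GC offset (GC for 98% of identifiers). Promoters and gene overlaps come from RefSeq (GRCm38.p6) and GENCODE M21.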

Additional observations from a re-analysis of the deposited data

How the results depend on the processing

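Of the 17 alternatives, a fold threshold of 1.2 (glmTreat) was the most severe: 1 Wnt gene (Axin2) remained higher and 0 lower, 1 and 2 of the other pathway genes, and 112 genes in all. DESeq2 gave 25 other pathway genes lower, and 2576 genes changed beside 1997. Omission of 1 library gave 2 to 6 Wnt genes higher and 0 to 1 lower, including genes that were not past the threshold with all libraries. It gave 5 to 10 other pathway genes higher and 7 to 20 lower, and 586 to 1985 genes in all, fewest without cKO 8. Groups that do not overlap were then seen in 14 to 24 Wnt genes, beside 13, most without WT 14, since fewer libraries overlap less. The share over all genes tested was not computed for these omissions, so these counts have no background beside them. The median log2 fold change of the Wnt genes was 0.0257 with upper-quartile scaling, beside 0.0346 over all genes tested. It was 0.0267 with a mean CPM of at least 1 (51 Wnt genes tested), beside 0.0044, and 0.0233 with limma voom, beside 0.0068. With the length and GC offset it was 0.0705, beside 0.007. On omission of 1 library it was -0.0228 to 0.0495, beside 7e-04 to 0.0081. The cause of these shifts was not tested. Wnt2b missed the threshold under the fold threshold (adjusted p = 0.121) and passed in the other 16 alternatives. In 17 Wnt genes, none of them among the 8 that changed, the sign of the log2 fold change turned under some alternative. With upper-quartile scaling Fzd7 was 0.0147, Lgr6 7e-04, Wnt6 0.0025, Dkk2 0.0257 and Wnt11 0.0095. With the length and GC offset Fzd7 was 0.0052, Wnt6 0.1117, Rspo1 0.0705, Lrp6 -0.0597 and Wnt11 0.076. With the length offset Lrp6 was -0.0044, with limma voom Dkk2 0.0437 and Wnt11 0.0233, with a mean CPM of at least 1 Dkk2 0.0071, and with halved counts Dkk2 0.0021. On omission of 1 library the values ranged for Fzd7 from -0.0611 to 0.0346, Lgr6 -0.0902 to 0.0087, Wnt6 -0.1544 to 0.1425, Rspo4 -0.5569 to 0.3502, Dkk2 -0.25 to 0.148, Sfrp2 -0.095 to 0.5323, Rspo1 -0.1349 to 0.0597, Wnt4 -0.1362 to 0.1791, Fzd10 -0.1533 to 0.2369, Wnt2 -0.3724 to 0.2868, Wnt11 -0.2122 to 0.3306, Sfrp1 -0.0879 to 0.269, Wnt9a -0.489 to 0.0824, Wnt7b -0.068 to 0.4357, Fzd8 -0.1455 to 0.028 and Tcf7l2 -0.1185 to 0.0102. No paired analysis was possible because the numbers in the titles are not shared between the groups. The filter on low counts left out the 7 Wnt genes at 0 to 8 counts a library, which entered only the fit with no filter. The intervals of Lgr5, Fzd9 and Rspo2 allow differences in either direction.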
